A study of Bos taurus with 57 samples.

Results

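The scarcer testes-enriched genes are 200 of the 24616 Ensembl genes listed for the tissues of Holstein Friesian bull calves, chosen because the testes held them at a low level and the arcuate nucleus and the anterior pituitary held far less of them. Levels are given as CPM, a gene's reads scaled to 1000000 counted reads of its library, and were averaged over the high plane libraries of each tissue. Among the 5368 genes with a testes mean from 2 to below 20 CPM, the 200 with the largest ratio of testes to the higher of the other tissues were taken, with 0.5 CPM added to both sides of the ratio. A further 4 identifiers were left out by the rule, and 0 of them would have ranked among the 200. The levels on the high plane therefore chose these genes and are given below as a description only.

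RNA was sequenced from the arcuate nucleus of the hypothalamus, the anterior pituitary and the testicular parenchyma of bull calves reared on either of 2 planes of nutrition, high or low. By the labels, calves grew 1.08 kg per day on the high plane and 0.5 kg per day on the low plane. All calves were male and were killed at 126 days of age. Of the 57 libraries, 29 were from the high plane (10 testes, 9 anterior pituitary and 10 arcuate nucleus) and 28 from the low plane (8 testes, 10 anterior pituitary and 10 arcuate nucleus). Calves of both planes shared breed, sex and age at slaughter, and feeding was the only treatment. The labels do not say which calf a library came from, so tissues could not be paired, and p-values measure the spread between libraries.

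The testes are known for transcribing many genes that are silent or nearly silent in other organs, most of them in germ cells and others in the Sertoli cells that nurse the germ cells or in the Leydig cells that make testosterone. In a prepubertal calf the seminiferous tubules hold Sertoli cells and early germ cells, and meiosis is only beginning. The arcuate nucleus and the anterior pituitary act upstream, through gonadotrophin-releasing hormone and the gonadotrophins. The files list the genes by Ensembl identifier and do not pair identifiers with names, so the genes are described as a set, and by identifier where a result turns on a single gene.

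Sequencing depth differed between libraries, from 898979 counted reads in the shallowest arcuate nucleus library (C22) to 32009433 in the deepest. In the testes, the high plane libraries held 14963221 to 26067610 counted reads (median 18655866), and the low plane libraries 8586953 to 22903487 (median 14180871). A level of 10 CPM thus rests on at least 85.9 reads in any testes library, whereas 0.1 CPM rests on about 1.57 reads in the median library of the other tissues.

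The arcuate nucleus library C44, from the high plane, stood apart from its group. The 200 genes summed to 502 CPM in C44 and to between 53.1 and 78.9 CPM in the other 9 high plane libraries of the arcuate nucleus, an 8.10-fold difference from their median of 62.1 CPM. In C44, 199 of the 200 genes had a read, and C44 was the highest library of its group for 184 of them. The excess over the median of the other 9 libraries was 24.5% of the testes level for the median gene, with quartiles of 16% and 34.4%. Over the 200 genes, log2 CPM in C44 had a correlation of 0.62 with the testes mean, against 0.38 to 0.48 in the other 9 libraries. This correlation is across genes of the same libraries and is given without a test.

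Further lists of 200 genes each were chosen on the low plane, among genes with a mean of 20 CPM or more in the enriched tissue. C44 was also high for the testes-enriched list, which summed to 11496 CPM in C44 and to between 998 and 2061 CPM in the other 9 libraries. It was not set apart for 200 pituitary-enriched genes, at 5096 CPM against a median of 5022 CPM. For 200 arcuate-enriched genes it had 59022 CPM, within the range of 53713 to 85382 CPM of the others. The cause was not tested. Because C44 entered the choice of genes, the rule was repeated without it, which returned 189 of the same 200 genes (94.5%).

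In testes libraries of the high plane, the 200 genes had mean levels from 2.70 to 19.9 CPM, with a median of 8.08 CPM. In the anterior pituitary of the same plane their means had a median of 0.177 CPM and a maximum of 2.43 CPM. In the arcuate nucleus the median was 0.355 CPM with C44 and 0.117 CPM without it. Thus, the levels outside the testes were close to the limit of detection for many of the genes. The ratio used by the rule ran from 5.69 to 26, with a median of 7.53, and without C44 from 5.75 to 38, with a median of 9.01, while the median over all genes in the same range of testes level was 0.802.

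The edge of the list was not a gap. The last 3 genes taken had ratios of 5.73, 5.72 and 5.69, at testes means of 15.4, 8.12 and 2.83 CPM. The first 3 not taken had ratios of 5.69, 5.65 and 5.62, at 3.18, 14.7 and 5.60 CPM. Genes at both ends of the level range lay on each side of the boundary.

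**Figure D1:**
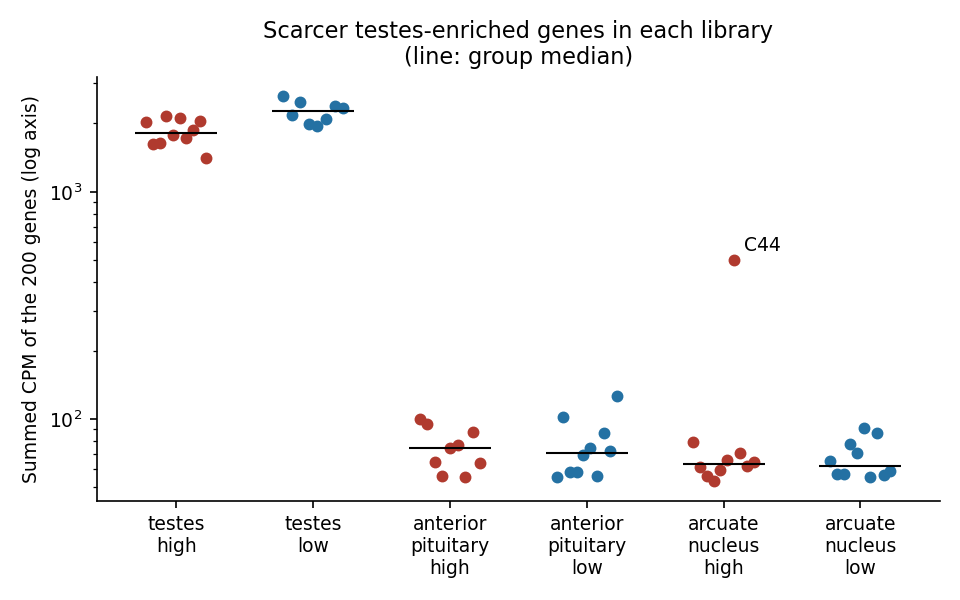
Summed CPM of the 200 genes in each of the 57 libraries (log axis), by tissue and plane of nutrition, with a line at each group's median. All 18 testes libraries lie between 1416 and 2639 CPM and every other library lies at or below 127 CPM, except the arcuate nucleus library C44 at 502 CPM.

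The low plane libraries were not used by the rule and show whether the pattern across tissues held in other calves. There the 200 genes summed to between 1949 and 2639 CPM in the 8 testes libraries, between 55.4 and 127 CPM in the 10 anterior pituitary libraries and between 55.4 and 91.5 CPM in the 10 arcuate nucleus libraries. The groups did not overlap between the testes and either other tissue. For 162 of the 200 genes, every low plane testes library was above every library of both other tissues, and this held for 8.32% of all genes with a read on that plane (1866 of 22439).

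By gene, testes means on the low plane ran from 1.04 to 61.3 CPM, with a median of 8.63 CPM. The median in the anterior pituitary was 0.163 CPM and in the arcuate nucleus 0.112 CPM. Of the 200 genes, 5 fell under 2 CPM in the testes and 23 were at 20 CPM or more, outside the range in which they had been chosen. The ratio of testes to the higher other tissue ran from 1.6 to 90.1 on the low plane, with a median of 11.1. It was 2 or more for 198 genes, and was at or above the lowest ratio taken on the high plane for 163. It was lower than on the high plane for 59 genes, or for 79 when C44 was left out of the high plane.

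**Figure D2:**
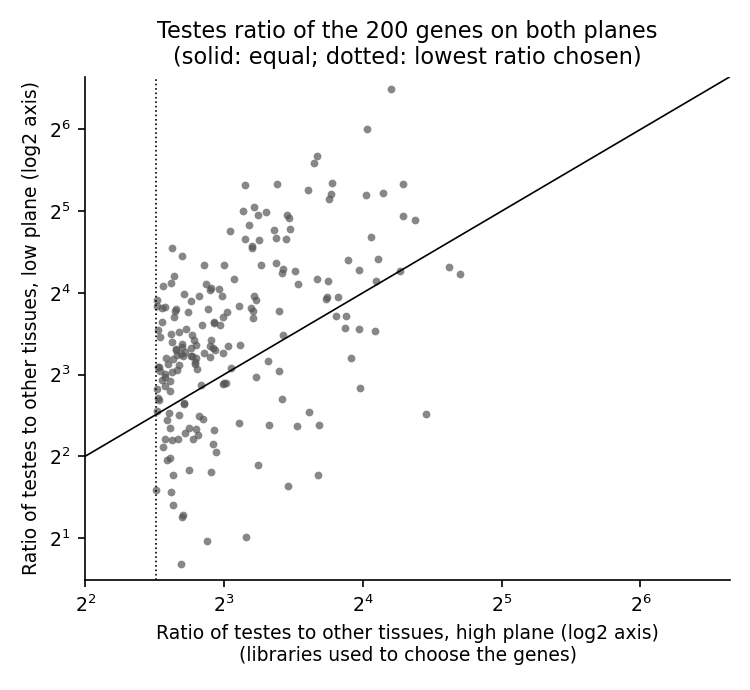
Ratio of the testes to the higher of the other tissues for each of the 200 genes, on the high plane (horizontal, used to choose the genes) and on the low plane (vertical), both on log2 axes and with C44 included, with the line of equality and a dotted line at the lowest ratio chosen. The low plane ratios spread from 1.6 to 90.1 around a median of 11.1, and 59 genes lie below the line of equality.

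Tested with edgeR's quasi-likelihood test and Benjamini-Hochberg adjustment (FDR) on the low plane libraries, 179 of the 182 genes that passed the filter on low counts were higher in the testes than in the anterior pituitary, against 30.4% of all genes tested. All 182 were higher in the testes than in the arcuate nucleus, against 32.1% of all genes. The median log2 fold change was 5.24 over the anterior pituitary and 6.06 over the arcuate nucleus, where the medians over all genes were 0.03 and -0.02. With library totals in place of TMM scaling these all-gene medians moved to 0.29 and 0.12, and the medians of the 200 genes to 5.48 and 6.16.

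Of the 182 genes, 160 reached the limit of the filter in neither other tissue and so passed because of their level in the testes, and the share that passed the test carries no weight of its own. Without any filter all 200 genes were tested. Then 196 were higher than in the anterior pituitary (27.7% of all genes) and 200 higher than in the arcuate nucleus (30.3%). When the test asked for more than a 2-fold difference, 176 of 182 genes passed against the anterior pituitary and 182 against the arcuate nucleus. The share of all genes passing that test is not given here. These counts carry no weight of their own either, as the genes and the filter are the same.

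The 3 genes that missed the threshold against the anterior pituitary are given with their spread between libraries, and why they missed it was not tested. ENSBTAG00000012406 averaged 8.63 ± 5.92 CPM (SD, n = 8) in low plane testes and 3.24 ± 4.91 CPM (n = 10) in the anterior pituitary, where the library A52 had 16.3 CPM, A35 had 6.78 CPM and the other 8 had 0.936 to 1.67 CPM. Its log2 fold change was 1.14 ± 0.52 (SE) with an FDR of 0.0654 by edgeR's quasi-likelihood test. ENSBTAG00000000310 averaged 4.28 ± 3.53 CPM in the testes and 1.5 ± 2.78 CPM in the anterior pituitary, with 9.33 CPM in the library A47 alone and an FDR of 0.118. ENSBTAG00000005404 averaged 4.73 ± 4.14 CPM in the testes and 2.77 ± 1.66 CPM in the anterior pituitary. Its log2 fold change was 0.47 ± 0.48 (SE), with an FDR of 0.426 by the same test. All 3 were higher in the testes than in the arcuate nucleus by the same test.

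Outside the testes, detection was partial and was uneven among the genes. In the anterior pituitary 7 genes had no read in any of the 19 libraries, for which a count of 0 allows a level of up to 0.00966 CPM (3 counts over the pooled total, counting error only). In the arcuate nucleus 0 genes were without a read, but 6 were when C44 was left out, with an upper limit of 0.0101 CPM over the 19 libraries left. No gene lacked reads in both tissues, with or without C44. At the other end, 23 genes had a mean of 1 CPM or more in the high plane anterior pituitary and 20 in the low plane, and 30 and 21 did in the arcuate nucleus, where the 30 became 18 without C44.

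Mean levels under 0.1 CPM were seen for 87 and 83 of the 200 genes in the anterior pituitary, high plane first. In the arcuate nucleus they were seen for 10 genes on the high plane and 97 on the low plane. That difference was gone without C44, when 98 genes of the high plane were under 0.1 CPM. In the testes, 196 genes had a read in every high plane library and 192 in every low plane library.

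The same rule applied to the low plane libraries returned 119 of the 200 genes, 59.5% of each list. Variation between testes libraries of a plane was wide. The coefficient of variation (SD over mean) had a median of 40.3% over the 200 genes on the high plane and 44.2% on the low plane, where all genes in the level range had 41.4%.

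The effect of the plane of nutrition on these genes was tested within each tissue. In the testes all 200 genes were tested, and 49 of them (24.5%) were differentially expressed between the planes at an FDR below 0.05 by edgeR's quasi-likelihood test, against 6.9% of the 15310 genes tested. Of these, 41 were higher on the low plane, against 4.75% of all genes, and 8 were lower, against 2.16%. Raised genes had log2 fold changes (low against high plane) from 0.60 to 1.73, with a median of 1.11, and lowered genes had from -2.48 to -0.75, with a median of -1.32. Over all 200 genes the median was 0.18, with quartiles of -0.49 and 0.60, against -0.01 over all genes tested, and 115 of the 200 were positive. In whole testis, fewer cells of a type and less RNA per cell cannot be told apart.

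High plane libraries form a side of this comparison and also chose the genes, so the counts depend on the choice. When the rule was applied to the low plane instead, 55 genes were called, 54 higher on the low plane and 1 lower. Among the 119 genes chosen on both planes, 24 were higher and 0 lower. Among the 81 chosen on the high plane alone, 17 were higher and 8 lower. With C44 left out of the choice, 40 were higher and 8 lower. Raised genes were called under each choice, and the 8 lowered genes were all among those chosen on the high plane alone. Low plane libraries form the other side of the comparison, and a choice made there favours genes that are high on that plane. The counts by direction under that choice, or under both choices together, therefore carry no weight of their own.

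Abundant testes-enriched genes, 200 chosen by the same ratio at testes means of 20 CPM or more, went mostly the other way. Of the 199 tested, 12 were higher and 19 lower on the low plane (15.6% called in all), with a median log2 fold change of -0.55. The other genes of the range from 2 to below 20 CPM had 288 higher and 90 lower among 5166 tested (7.32% called), with a median of -0.08. These lists share libraries with the 200 genes and the difference between them was not tested.

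**Figure D3:**
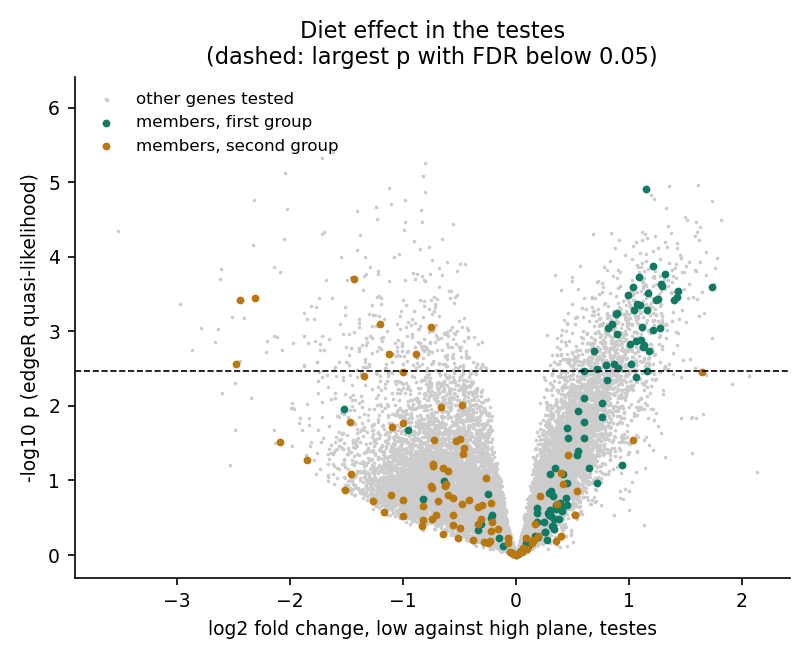
Log2 fold change between planes in the testes (horizontal, low against high plane) against -log10 p of edgeR's quasi-likelihood test (vertical) for all 15310 genes tested, with the 200 genes coloured by the co-varying groups described further on and a dashed line at the largest p with an FDR below 0.05. The 41 raised genes all carry the colour of the first group and the 8 lowered genes that of the second.

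Of the raised genes, ENSBTAG00000031198 had the smallest p-value. Its level ran from 10.5 to 22.6 CPM in the 10 high plane libraries, with a median of 14.4 CPM, and from 23.7 to 54.4 CPM in the 8 low plane libraries, with a median of 30.2 CPM. All 8 low plane libraries exceeded the highest of the high plane. The log2 fold change was 1.15 ± 0.20 (SE), with an FDR of 0.0169 by edgeR's quasi-likelihood test. It was the single gene of the 200 whose planes were apart in this direction, which held for 0.183% of all genes tested, and 0 genes were apart in the other direction (0.0457% of all genes).

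ENSBTAG00000009978 ranged from 10.2 to 28.1 CPM on the high plane, with a median of 17.5 CPM, and from 23.4 to 71.5 CPM on the low plane, with a median of 34.4 CPM. All but 1 of the low plane libraries lay above the high plane range. The log2 fold change was 1.21 ± 0.25 (SE) with an FDR of 0.0206 by the same edgeR test. For both raised genes the library B2 was the highest and B31 the lowest of the low plane.

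Of the lowered genes, ENSBTAG00000026156 ranged from 9.97 to 21.2 CPM on the high plane, with a median of 16.8 CPM, and from 1.66 to 15.3 CPM on the low plane, with a median of 5.15 CPM. The low plane library B31 alone, at 15.3 CPM, lay within the high plane range, and the other 7 were below it. The log2 fold change was -1.43 ± 0.31 (SE), with an FDR of 0.0206 by edgeR's quasi-likelihood test. Leaving out single libraries gave an FDR of up to 0.0521.

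ENSBTAG00000005717 ranged from 0.70 to 12 CPM on the high plane, with a median of 5.0 CPM, and from 0.0652 to 2.33 CPM on the low plane, with a median of 1.25 CPM. The groups overlapped, with 2 low plane libraries below the high plane range and 6 within it, since the high plane library B42 was at 0.70 CPM. The log2 fold change was -2.31 ± 0.53 (SE), with an FDR of 0.0234 by edgeR's quasi-likelihood test. Leaving out single libraries gave an FDR of up to 0.0561.

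**Figure D4:**
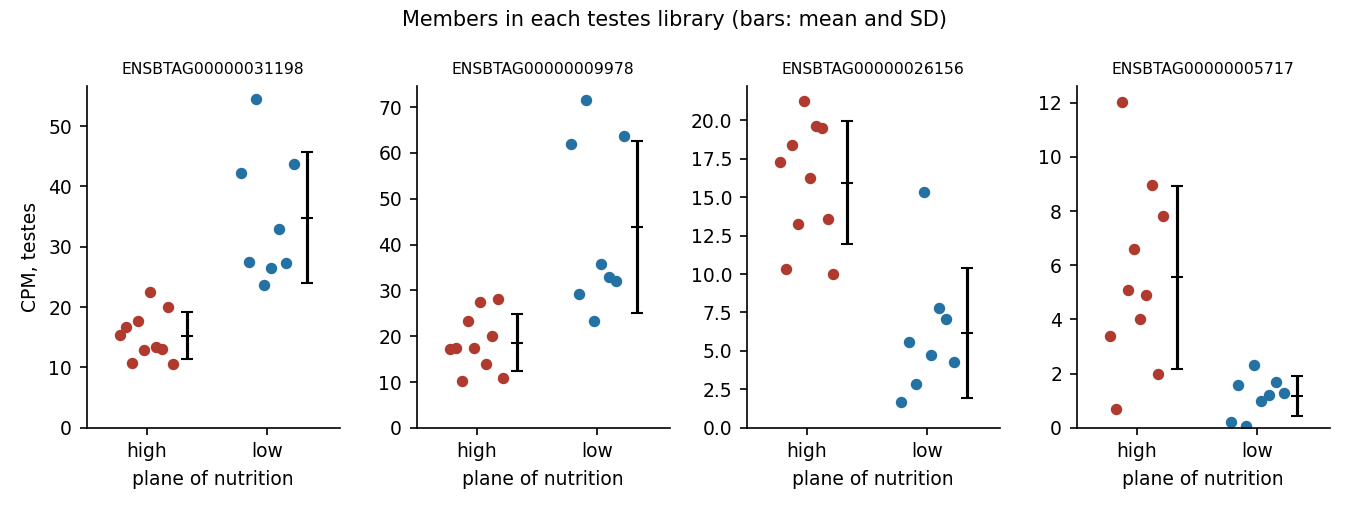
CPM of 2 raised and 2 lowered genes in each testes library of the high plane (10) and low plane (8), with the mean and SD beside the points. The planes are apart for ENSBTAG00000031198, 1 low plane library overlaps the high plane for ENSBTAG00000009978 and 1 for ENSBTAG00000026156, and 6 do for ENSBTAG00000005717.

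The number of genes called rested on single libraries. Without the low plane library B2, 5 of the 200 genes were called. Without B20 there were 11 (5.5%, against 1.39% of all genes) and without B21 14 (7% against 1.41%). Without B26 there were 27 (13.5% against 3.06%). Without the high plane library B5 there were 19 (9.5%, against 1.97% of all genes) and without B38 20 (10% against 1.81%). Without A48 there were 22 (11% against 2.14%) and without B32 23 (11.5% against 2.25%). Without B12 there were 25 (12.5% against 2.8%) and without B49 30 (15% against 3.38%). Without any of the other 8 libraries in turn, 42 to 66 genes were called (21% to 33%, against 5.02% to 30.1% of all genes). The share of all genes called moved too, from 1.02% without B2, where 2.5% of the 200 genes were called, to 30.1% without B42, where 33% were. Shares of all genes by direction are not given for these fits. Raised genes numbered from 4 without B2 to 53 without B42. Lowered genes numbered 1 without B2 or without B20, 3 without any of B32, B12, B5, B49, B38, B21 or B26, 4 without A48, 13 without B42, 14 without B7 and 15 without B31.

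Total counts moved with the plane in the testes, as given above. With the log2 total count as a covariate, edgeR's quasi-likelihood test called 0 of the 200 genes, and 2 of all genes (0.0131%). At an unadjusted p below 0.05 there were 60 of the 200 genes (30% against 10.3% of all genes), and 79 without the covariate (39.5% against 30.2%). All 49 genes kept the sign of their change, 47 of them had an unadjusted p below 0.05, and their FDR ran from 0.172 to 0.553. The 49 were picked for a change in these same libraries, so their kept signs and p-values are no independent support. DESeq2 without the covariate called 60 genes (30%), including all 49, against 12.9% of all genes. With limma, voom and quality weights, 129 of the 200 genes (64.5%) were called, including all 49, split as 72 higher and 57 lower. That fit called 72.8% of all genes, so the share of the 200 genes was below that of all genes there. Shares of all genes by direction are not given for that fit.

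Testes libraries also differed along an axis that ran through all tissues. A library score measured it, as the average log2 CPM over 200 genes that had the steepest slopes on the first dimension of a scaling plot in the other tissues. None of the genes described here (0 of 200) is among them. On the high plane the score was 4.20 to 4.98 in 9 testes libraries and -0.65 in B42. On the low plane it was 4.55 in B50, 4.77 in B7 and 4.82 in B31, and between -1.10 and 1.58 in the other 5. With the score as a covariate, 19 of the 200 genes (9.5%) were called, against 6.21% of all genes, 12 higher and 7 lower, of which 12 were among the 49, and all 49 kept their sign. With only the 9 high plane and 3 low plane libraries scoring above 4, edgeR's quasi-likelihood test called 0 of the 200 genes and 0 of all 15935 tested, and all 49 kept their sign. Both fits reuse libraries in which the 49 were picked, so the kept signs are no independent support. An unadjusted p below 0.05 was reached by 56 of the 200 (28%), against 16% of all genes. What the score reflects, and its part in the effect of the plane, were not tested.

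The genes did not vary together as 1 block across the 18 testes libraries. After the mean of each plane was removed, the median pairwise correlation of log2 CPM over the 200 genes was 0.05. The first principal component held 36.2% of their variance, against 59.3% for all genes tested, and the second held 21.2%, against 8.21%. Average linkage on the correlations, split in 2, gave a first group of 106 genes with a median correlation of 0.32 and a second group of 94 with 0.39, while the median between the groups was -0.20. The split was chosen after the data were seen and is a description without a test, and the points of each correlation share library depth.

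The groups differed in the effect of the plane. Plane means were removed before the grouping, but this did not make it independent of the plane. The library score, which the second group moved with (given below), had a median of 4.67 in high plane and 0.977 in low plane testes libraries. How the called genes fall into the groups is therefore a description only. All 41 raised genes were in the first group and all 8 lowered genes were in the second. The median log2 fold change was 0.54 in the first group, positive for 93 of 106 genes, and -0.48 in the second, negative for 72 of 94. The median of mean levels went from 7.46 CPM on the high plane to 11.4 CPM on the low plane in the first group, and from 8.75 to 7.35 CPM in the second. The low plane rule had also chosen 74 of the 106 genes and 45 of the 94.

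The second group followed the library score. Its genes had a median correlation of 0.76 with the score within planes, and 66.0% of them were above 0.5. In the first group the median was -0.36, with a range from -0.88 to 0.54, and 35.8% were below -0.5. Among all genes tested, 43.3% were above 0.5 and 35.3% below -0.5, so the first group's share below -0.5 was close to that of all genes. Over the 200 genes together, both shares were smaller than among all genes tested. The groups were split on correlations in the same libraries, so the lean of each group to a side of the score is a description only. The median correlation with the log2 total count was -0.26 in the first group and 0.19 in the second.

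Summed over its 106 genes, the first group ranged from 606 to 1185 CPM in the high plane testes libraries, with a median of 897 CPM, and from 902 to 2086 CPM in the low plane libraries, with a median of 1425 CPM. The planes overlapped, with B31 lowest of the low plane and B2 highest. The second group ranged from 440 CPM in B42 to 1159 CPM on the high plane, with a median of 1013 CPM, and from 411 CPM in B2 to 1192 CPM in B7 on the low plane, with a median of 697 CPM. The low plane libraries with low scores held the high sums of the first group and the low sums of the second. With the library score as a covariate, the first group had 8 genes called higher and 1 lower, with a median log2 fold change of 0.25, and the second had 4 higher and 6 lower, with a median of 0.06.

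**Figure D5:**
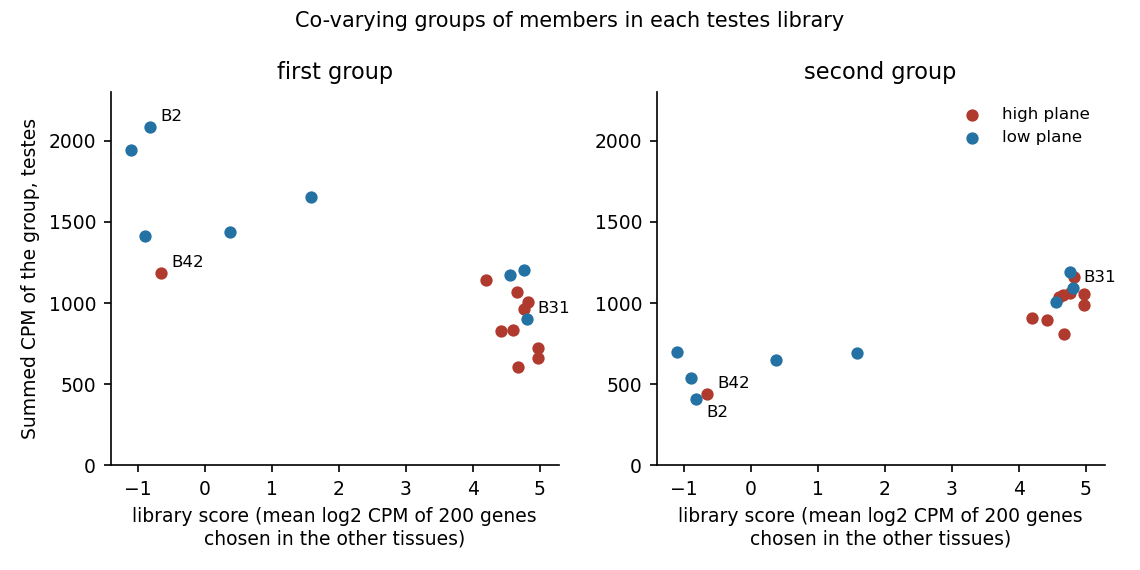
Summed CPM of the first group (106 genes, left) and second group (94 genes, right) in each of the 18 testes libraries (vertical) against the library score in log2 CPM (horizontal), coloured by plane. The second group lies between 411 and 700 CPM in the 6 libraries with low scores and between 811 and 1192 CPM in the others, and the first group reaches 2086 CPM in B2.

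In the anterior pituitary 35 of the 200 genes passed the filter, 2 of them (5.71%) were called by edgeR's quasi-likelihood test, against 0.562% of the 14411 genes tested, and 9 had an unadjusted p below 0.05 (25.7% against 7.42% of all genes). Both were lower on the low plane, against 0.493% of all genes, and 0 were higher, against 0.0694%. The share called depends on the filter, which kept few of the 200 genes and which genes high on 1 plane can pass through that plane. With no filter, 1 of 193 genes (0.518%) was called, against 0.318% of all genes. An unadjusted p below 0.05 was then reached by 26 of the 193 genes (13.5%, against 6.9% of all genes) in edgeR's quasi-likelihood test. The shares of 5.71% and 25.7% therefore carry no weight of their own. ENSBTAG00000005129 ranged from 1.12 to 4.51 CPM in the 9 high plane libraries, with a median of 1.41 CPM, and from 0.0618 to 0.949 CPM in the 10 low plane libraries, with a median of 0.309 CPM. Every low plane library was below every high plane library, and the share of all genes apart in this way in the anterior pituitary is not given here. Its log2 fold change was -2.28 ± 0.44 (SE), with an FDR of 0.0154 by edgeR's quasi-likelihood test, and it was called under every alternative tried and without any single library, where its FDR reached at most 0.0431.

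ENSBTAG00000016619 ranged from 0.758 to 1.6 CPM on the high plane, with a median of 1.24 CPM, and from 0.219 to 1.21 CPM on the low plane, with a median of 0.503 CPM. In the low plane 7 libraries were below the high plane range and 3 were within it. The log2 fold change was -1.18 ± 0.26 (SE), with an FDR of 0.0452 by edgeR's quasi-likelihood test. The call was lost in 17 of the 19 fits that left out a single library, with an FDR of up to 0.0934. Both genes belonged to the first group by their behaviour in the testes.

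In the arcuate nucleus 31 of the 200 genes passed the filter and 0 were called by edgeR's quasi-likelihood test, DESeq2, edgeR's exact test or limma voom, as were 0% of the 14757 genes tested by the first of these. At an unadjusted p below 0.05 there were 4 of the 31 genes (12.9%, against 9.92% of all genes). Their median log2 fold change was -0.28, and 0.06 without C44. When no filter was applied, all 200 genes were tested, with a median of -1.17 and 93 genes (46.5%) at an unadjusted p below 0.05, against 9.07% of all genes, and 0 were called. Without C44 the same fit tested 194 genes, with a median of 0.06 and 14 genes (7.22%) at an unadjusted p below 0.05, against 7.33% of all genes. The lower levels on the low plane in the arcuate nucleus were thus carried by the library C44.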

How the data were processed

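The authors deposited, for each library, whole-number read counts per Ensembl gene, without normalization. The submitters' processing notes name CASAVA 1.4, STAR, HTSeq and edgeR without roles, and the genome build and annotation release are not given in the sources used here. Another 3 libraries, which the authors removed for low read numbers, are not analysed here. Libraries were grouped by the diet and tissue of their labels, and the library labelled A48, headed B48 in its data, was kept as testes.

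The 200 genes and all lists were chosen with earlier results of these data known, and the library score was devised in that earlier work.

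Tests on the counts used edgeR 4.0.16 in R 4.3.3 (default filter on low counts, TMM scaling, quasi-likelihood test, FDR below 0.05). Low plane was compared with high plane within each tissue, and the testes with the other tissues in 1 fit of the low plane libraries. Alternatives were DESeq2 1.42.0, voom with quality weights in limma 3.58.1, edgeR's exact test, library totals without TMM, no filter, a filter of CPM above 1 throughout a group, the log2 total count or the library score as covariate, and leaving out each library. Choices of genes on the low plane or without C44, the unfiltered arcuate fit without C44, and the libraries scoring above 4 were added after the data were seen. Correlations and groups were computed in Python 3.11.15 with scipy 1.17.1, and the fits were checked on simulated counts.

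Of the identifiers, 0 could be matched to the 37063 genes of the reference table (ARS-UCD2.0), which carries no Ensembl identifiers. The planned marker lists and the description of names, positions, promoters and proteins were therefore not run. For the same reason the rule for named genes was cut to the 2 raised and 2 lowered testes genes with the smallest p-values, those called in the anterior pituitary and the 3 failing the low plane test. The strand setting of the counting is not given, so overlapping genes could share reads.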

Additional observations from a re-analysis of the deposited data

Results flagged for a closer look

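Among 22 sets of values searched for a library far from the rest of its group, 3 were found, and chance finds about 1 in 20. Some sets share genes, and ENSBTAG00000026156 was picked for a change in the same libraries. The 3 of 22 therefore cannot be weighed against that rate. The 200 genes summed to 502 CPM in the high plane arcuate nucleus library C44, where the nearest other library had 78.9 CPM, a gap of 0.943 of the group's range. The second group of genes summed to 440 CPM in the high plane testes library B42, where the nearest other had 811 CPM, a gap of 0.516 of the range. ENSBTAG00000026156 was at 15.3 CPM in the low plane testes library B31, where the nearest other had 7.81 CPM, a gap of 0.549 of the range.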

How the results depend on the processing

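In the testes, limma voom called 129 of the 200 genes (72 higher on the low plane and 57 lower), against 72.8% of all genes. The library score as covariate gave 19 (12 higher), against 6.21%. The log2 total count as covariate gave 0, against 0.0131%. The libraries scoring above 4 gave 0 of the 200 and 0 of all genes. The lowered genes numbered 14 with DESeq2, 4 with no filter and 1 when the genes were chosen on the low plane, and the cause was not tested. DESeq2 called 12.9% of all genes and the fit with no filter 2.72%, against 6.9% in the main fit. Shares of all genes by direction are not given for these alternatives. Leaving out each library gave 5 to 66 genes called (2.5% to 33%, against 1.02% to 30.1% of all genes), 4 to 53 higher and 1 to 15 lower. In the anterior pituitary 1 of 35 genes was called with library totals (0.347% of all genes) and 1 of 35 with the log2 total count (0.444%). With no filter it was 1 of 193 (0.318%), and with the stricter filter 1 of 3 (0.893%). There were 4 of 35 with limma voom (7.58%) and 5 of 35 with the library score (9.01%). Leaving out each library gave 1 to 2, for which the share of all genes is not given. The counts of genes higher in the testes on the low plane stayed within 1.5 times their main values under every alternative. The list holds 200 genes chosen for this pattern, so the counts had little room to rise and this carries no weight of its own. The 6 genes named in the tests of diet kept their direction under every alternative that tested them. These genes were picked for a change in the same libraries, so this is no independent support. The median log2 fold change of the 200 genes turned from 0.23 to -0.10 in the anterior pituitary with no filter, from -0.28 to 0.06 in the arcuate nucleus without C44, and in the second group in the testes from -0.48 to 0.06 with the library score. No paired analysis was possible because the groups share no library numbers. Genes near 0.1 CPM in the arcuate nucleus or anterior pituitary rest on few reads, and no effect of the plane was detectable for most of them at this depth.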
